A study of Mus musculus with 36 samples.

Results

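The comparison described here was that of day 3.5 with day 3 of motor neuron differentiation, made on 6 of the 36 libraries of a mouse time course (3 libraries at 72 hours and 3 at 84 hours). The 6 libraries were taken by their time labels. The design text of the series gives sampling at 12-hour intervals up to day 3 and once a day from there, whereas labels and files also carry day 3.5, which was used as labelled. All libraries came from HM1, a mouse embryonic stem cell line. Every group shared the same earlier treatment: feeder cells were removed, cells were plated in N2B27 with bFGF, and they then received bFGF with CHIR99021 (a Wnt pathway activator), SB431542 and DMH1 (inhibitors of Activin and Bmp signalling) before day 0. From day 0 the cells of both groups were kept in N2B27 with 100 nM retinoic acid and 500 nM SAG, an activator of Hedgehog signalling, so the groups differed by 12 hours of culture in the same medium. The labels call the cells neural progenitors that started from neuromesodermal progenitors, and no group was kept without retinoic acid and SAG after day 0. Medium was changed daily, at an hour that the labels do not give, so time in culture and time since the last change cannot be told apart. The labels name biological replicates of a single line but not separate cultures, so the p-values speak only of the spread among these libraries, part of which may be technical.

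Retinoic acid enters the nucleus, binds receptors such as RARB and switches on genes that include its own degrading enzymes, the CYP26 hydroxylases, so the pathway limits itself. In the ventral spinal cord retinoic acid and Hedgehog signals together specify OLIG2 progenitors, which leave the cell cycle under proneural factors such as NEUROG2 and become motor neurons that express MNX1, ISL1 and LHX3. Notch signalling between neighbouring cells holds some of them back as progenitors.

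Of 17990 genes tested with edgeR's quasi-likelihood test, 7341 changed between day 3 and day 3.5 at an adjusted p under 0.05 (40.8%), with 3783 higher (21%) and 3558 lower (19.8%). A change of at least 2-fold was found for 694 genes (3.86%), of which 183 rose (1.02%) and 511 fell (2.84%). This count was 155 when genes needed 10 CPM in 3 libraries and 80 with limma on log2(TPM + 1). The 3 libraries of each day did not overlap in CPM for 9520 genes (52.9%). The median log2 difference of all genes was 0.00. When libraries were scaled by their totals alone, which moved that median by -0.06, 2602 genes were called higher and 4535 lower, so that 36.5% of calls were rises against 51.5% in the main fit, and small differences depend on the scaling. Counts in a list below are to be read against 21% higher and 19.8% lower.

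Library totals ran from 26950153 to 31526516 expected counts at day 3 and from 28763742 to 31348598 at day 3.5, and mitochondrial genes took 1.33% to 1.43% and 1.53% to 1.69% of them. Over 14141 genes, pairs of replicates differed by a root mean square of 0.14 to 0.16 on the log2 scale, and the means of the 2 days by 0.29. The difference between the days also moved with base composition: from the lowest to the highest quintile of genes by GC content the median log2 difference was 0.12, 0.05, 0.01, -0.04 and -0.09, and its part in the results was not tested. A fit with offsets for GC content and gene length called 7448 genes, of which 6208 were called in the same direction in both fits. The labelled cell type was matched only in part: the progenitor gene Sox2 lay between 148.28 and 156.03 TPM at day 3 and between 148.46 and 159.07 TPM at day 3.5, beside 933.12 to 989.35 and 1083.08 to 1144.87 TPM of the neuronal tubulin gene Tubb3. The libraries thus held RNA of progenitors and of neurons, and in such bulk samples fewer cells of a type and less RNA per cell cannot be told apart.

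The genes that answer to retinoic acid included the largest rise of the ranking given below and several others. Among 21 tested members of a list of 22, 12 rose and 5 fell, with a median log2 difference of 0.30 against 0.00 for all genes. Their summed level fell, from 1908 TPM in each day 3 library to between 1746 and 1797 TPM at day 3.5. Cyp26b1 (ENSMUSG00000063415, GRCm38 chr6:84571414-84593908, minus strand), which encodes a retinoic acid hydroxylase, measured 6.31, 6.92 and 6.07 TPM in the 3 libraries of day 3 and 50.23, 54.42 and 49.24 TPM in those of day 3.5. All day 3.5 libraries lay above all day 3 libraries, and the change was 7.93-fold (log2 2.99 ± 0.13, SE, adjusted p = 7.75e-17). Among changed genes without overlap, at or above 10 CPM in their higher group and leaving out predicted genes, this was the largest rise. Its relative Cyp26a1 (ENSMUSG00000024987, chr19:37697798-37701536, plus strand) measured 3.47, 2.94 and 3.79 TPM and then 10.14, 12.1 and 9.48 TPM, 3.09-fold more (log2 1.63 ± 0.14, adjusted p = 5.85e-11). Dhrs3 (ENSMUSG00000066026, chr4:144892827-144928209, plus strand), whose product turns retinaldehyde back into retinol, went from 7.2, 8.0 and 9.01 TPM to 26.45, 30.09 and 27.81 TPM (log2 1.81 ± 0.10, adjusted p = 2.48e-14). All 3 of these enzymes lower the supply of retinoic acid.

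The promoters of Rarb and Cyp26a1 are shown because they carry the element through which retinoic acid receptors act at these genes, a direct repeat of a 6-base unit with 5 bases between the copies. The unit searched for was AGGTCA, or with a change of letters GGTTCA, or else AGTTCA, in any combination. Both sequences are RefSeq promoter sequence on GRCm38.p6, 120 bases long and read 5′ to 3′ on the strand of the gene, with the repeat in capitals. The repeat lies 53 to 37 bases before the start of Rarb used in that table (chr14:16575477-16575596, minus strand), which lies inside the span of the gene given below, and 32 to 16 bases before that of Cyp26a1 (chr19:37697688-37697807, plus strand, where the copies read on the other strand).
Rarb: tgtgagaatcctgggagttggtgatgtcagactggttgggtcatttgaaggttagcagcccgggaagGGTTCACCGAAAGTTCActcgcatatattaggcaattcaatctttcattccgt
Cyp26a1: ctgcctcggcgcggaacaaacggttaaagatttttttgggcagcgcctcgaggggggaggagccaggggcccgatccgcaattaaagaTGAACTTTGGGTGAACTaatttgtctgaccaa
Searched on both strands, the repeat was found in 20 of 32851 promoter windows of 300 bases (0.0609%) and in 2 of the 14 windows that could be matched among the 22 genes of the list. The copies in these 2 promoters read GGTTCA or AGTTCA, the letter forms that the search allowed beside AGGTCA. The 2 of 14 therefore cannot be read as an enrichment over the share of all windows. A match describes the letters only, and the other 12 windows say nothing about binding elsewhere.

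Rarb (ENSMUSG00000017491, chr14:16430839-16819156, minus strand), a retinoic acid receptor gene, measured 23.05, 26.47 and 26.24 TPM at day 3 and 42.37, 45.52 and 43.79 TPM at day 3.5, with no overlap (log2 0.79 ± 0.06, adjusted p = 2.72e-12). The transcription factor gene Tshz1 rose by 0.60 ± 0.04 (SE) on the log2 scale, and the homeobox cofactor genes Meis2 and Meis1 by 0.28 ± 0.05 and 0.25 ± 0.04. The carriers of retinoic acid in the cytoplasm went the other way. Crabp1 fell from 498.33, 521.59 and 488.28 TPM to 286.76, 280.17 and 278.16 TPM (log2 -0.84 ± 0.06, adjusted p = 8.63e-12) and Crabp2 by a log2 of -0.40 ± 0.05, as did the transglutaminase gene Tgm2 (-0.45 ± 0.09) and the receptor gene Rara (-0.24 ± 0.06). The uptake receptor gene Stra6 and Hoxb1 did not pass the test (adjusted p = 0.84 and 0.312). Rarb shares exon sequence with Gm48162 and Top2b on the other strand, and Meis1 and Tgm2 also overlap other-strand genes, which makes their values uncertain because the use of strand in counting is not given in the sources used here.

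The levels of Cyp26b1, Cyp26a1 and Rarb alternated from step to step. Mean TPM of Cyp26b1 was 50.01 at day 2.5, 6.43 ± 0.44 (SD, n = 3) at day 3, 51.3 ± 2.75 at day 3.5 and 6.73 at day 4. Cyp26a1 followed the same order with 8.93, 3.40, 10.6 and 4.26 TPM, and Rarb with 39.3, 25.3, 43.9 and 29.7 TPM. The step after day 3.5 minus the step before it was tested directly in the same model, and a negative value means that day 3.5 lay above the mean of days 3 and 4 on the log2 scale. This value was -6.03 for Cyp26b1 (adjusted p = 3.94e-20), -3.05 for Cyp26a1, -1.95 for Dhrs3 and -1.47 for Rarb. Of the 21 tested members of the list, 12 were called above that mean (21.8% of all genes) and 3 below it (19.7%). The level of Dhrs3 stayed near the day 3.5 value at day 4 (28.1 and 27.9 TPM) and reached 94.2 TPM at day 6.

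**Figure D1:**
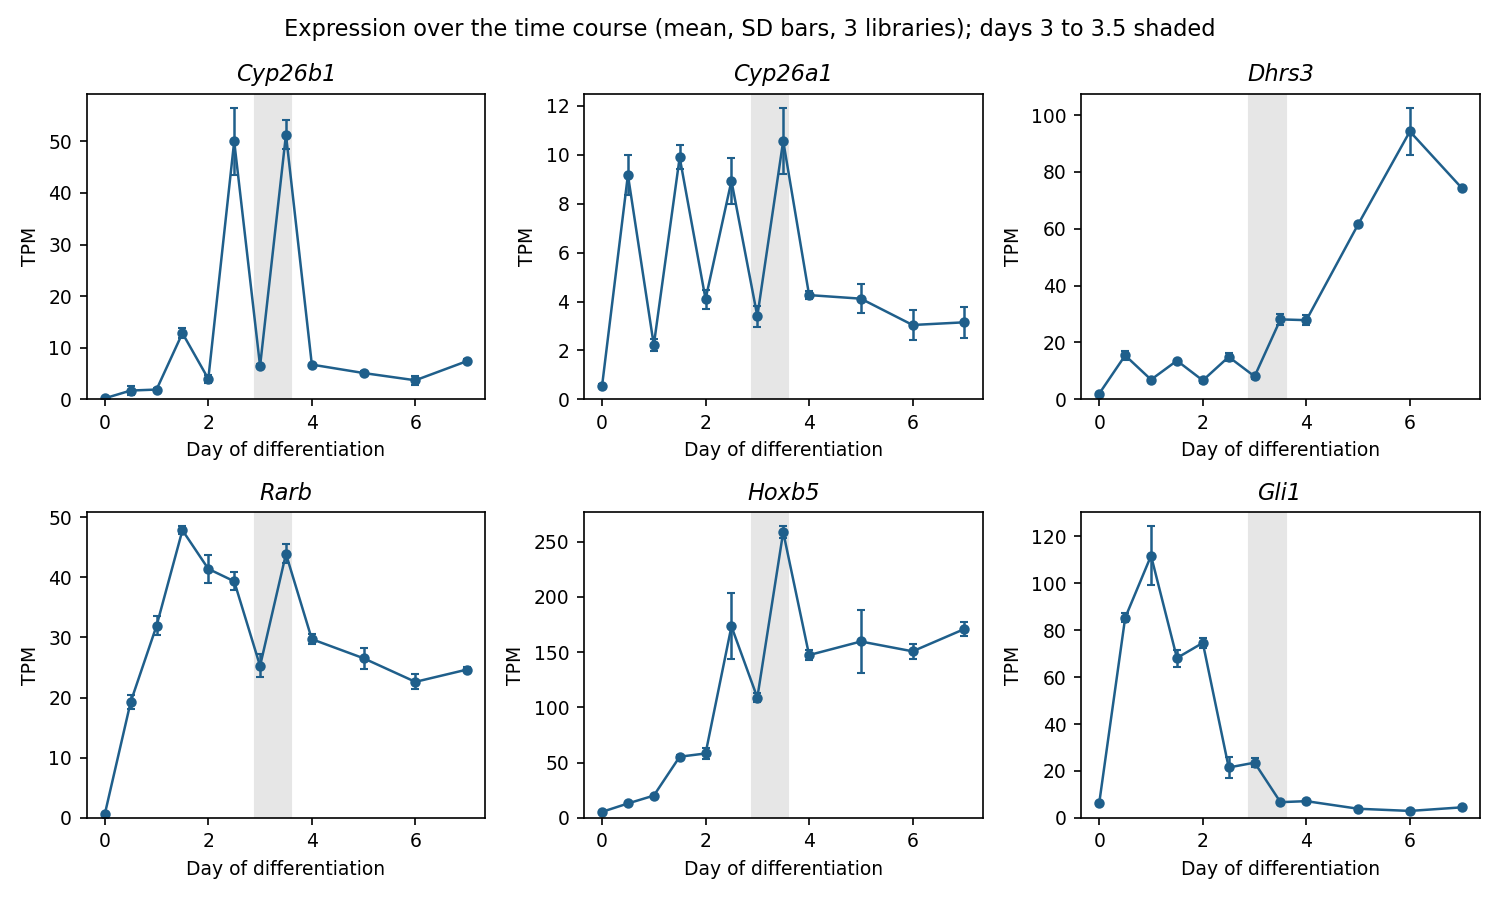
Expression in TPM (y axis, linear, own scale in each panel) against day of differentiation (x axis) for 6 genes; points are means of 3 libraries, bars are the SD, and days 3 to 3.5 are shaded. Cyp26b1 stands at 50.01 and 51.3 TPM at days 2.5 and 3.5 and at 6.43 and 6.73 TPM at days 3 and 4, whereas Gli1 drops from 23.5 to 6.68 TPM and remains low.

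Hox genes of the anterior and middle groups rose where they changed. These homeobox genes set position along the body axis, and low paralogue numbers mark the hindbrain and neck. In paralogue groups 1 to 4, 5 of 12 members rose and 0 fell (median log2 0.11). In groups 5 to 8, 5 of 11 rose and 0 fell (median log2 0.38). Groups 9 to 13 had 7 of 16 members tested, of which 1 rose and 0 fell (median log2 -0.34). The summed level of these 7 was 73.05 to 98.74 TPM at day 3 and 105 to 137.3 TPM at day 3.5. Hoxb5 (ENSMUSG00000038700, chr11:96303336-96306121, plus strand) measured 105.9, 113.32 and 107.34 TPM at day 3 and 264.0, 253.57 and 258.74 TPM at day 3.5, 2.37-fold higher (log2 1.24 ± 0.09, adjusted p = 1.52e-12). Hoxa5 went from 55.76, 55.93 and 58.05 TPM to 116.53, 114.08 and 106.66 TPM (log2 0.99 ± 0.07, adjusted p = 6.62e-13), and the day 3.5 libraries of both genes lay above every day 3 library. Hoxa4 (log2 1.02 ± 0.11), Hoxa3 (0.50 ± 0.06), Hoxb8 (0.47 ± 0.07) and Hoxb6 (0.46 ± 0.07) rose as well. Hoxc5 rose in counts (0.37 ± 0.06), but its TPM were 31.35 to 33.84 and 34.3 to 36.91 and did not pass limma on log2(TPM + 1) (0.12, adjusted p = 0.414). Overlapping transcripts make Hoxb5 (Hoxb5os), Hoxa3 and Hoxa4 uncertain. Hoxb5 was at 173 TPM at day 2.5 and 147 TPM at day 4, so it too stood above both neighbours of day 3.5 (-2.16 for the difference of the steps), while Hoxa5 stayed at 117 TPM at day 4.

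Hedgehog target genes fell where they changed. Of 12 members, 5 fell and 0 rose, with a median log2 difference of -0.13. Gli1, the transcription factor gene read most often as a reporter of the pathway, measured 21.97, 22.78 and 25.84 TPM at day 3 and 6.69, 6.98 and 6.38 TPM at day 3.5. The groups did not overlap, and the fall was 3.29-fold (log2 -1.72 ± 0.10, adjusted p = 9.76e-14). Ptch1, the receptor that SAG bypasses and itself a target, fell from 198.64, 200.79 and 204.67 TPM to 156.18, 162.94 and 159.7 TPM (log2 -0.35 ± 0.04, adjusted p = 1.02e-07). Rab34 (-0.56 ± 0.06) and the ligand-binding inhibitor gene Hhip (-0.47 ± 0.08) fell too. Unlike Cyp26b1, Gli1 had a similar mean at day 2.5 (21.5 TPM) as at day 3 and at day 4 (7.12 TPM) as at day 3.5. It shares exon sequence with Arhgap9 on the other strand.

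Ventral progenitor genes split. Of 15 members, 4 rose and 6 fell (median log2 -0.06). Olig2, which defines the motor neuron progenitor domain, fell from 109.1, 95.93 and 120.25 TPM to 59.21, 61.71 and 57.93 TPM (log2 -0.87 ± 0.10, adjusted p = 6.04e-08), and its mean at day 4 was 40.3 TPM. Olig1 (-1.08 ± 0.13), Nkx6-2 (-1.40 ± 0.14) and Nkx2-9 (-1.07 ± 0.11) fell more than 2-fold. Among the genes that rose, 3 are known from the floor plate, the ventral midline of the neural tube: Foxa1 (0.80 ± 0.10), Spon1 (0.56 ± 0.06) and the axon attractant gene Ntn1 (0.31 ± 0.06). Foxa1 measured 9.32, 11.48 and 8.62 TPM at day 3 and 16.76, 16.63 and 17.1 TPM at day 3.5. Shh, the ligand made by the floor plate, did not pass the test at 88.88, 97.57 and 83.67 TPM against 94.93, 106.44 and 97.12 TPM (log2 0.14 ± 0.09, adjusted p = 0.203, and 0.0183 without a filter on low counts), nor did Nkx2-2 (log2 0.03, adjusted p = 0.727) or Foxa2 (log2 -0.16, adjusted p = 0.184, but adjusted p = 0.0117 in a fit of the compared libraries alone). By day 4 the mean of Shh was 206 TPM and that of Nkx2-2 was 140 TPM. Nkx6-1, which spans several ventral domains, was called lower (log2 -0.22 ± 0.05) but not with the offsets for GC content and length (adjusted p = 0.0683).

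Genes of the Notch pathway fell together at day 3.5. Of 19 members 12 fell and 1 rose, with a median log2 difference of -0.30. Hes5, a repressor induced by Notch in neural progenitors, measured 80.6, 75.69 and 92.09 TPM at day 3 and 51.4, 46.93 and 47.41 TPM at day 3.5 (log2 -0.77 ± 0.10, adjusted p = 1.75e-07). The ligand gene Dll1, carried by cells that leave the progenitor state, measured 73.72, 73.7 and 74.15 TPM and then 55.98, 54.71 and 52.7 TPM (log2 -0.42 ± 0.05, adjusted p = 1.22e-08). For both genes the groups did not overlap. Other ligands fell as well, with log2 differences of -0.82 ± 0.11 for Dll4, -0.54 ± 0.10 for Dll3 and -0.48 ± 0.07 for Jag2. The receptor gene Notch1 (-0.36 ± 0.07), the glycosyltransferase genes Mfng (-0.51 ± 0.06) and Lfng (-0.30 ± 0.06), and the target genes Hey2 (-0.56 ± 0.14), Nrarp (-0.43 ± 0.06) and Hes1 (-0.24 ± 0.06) fell. Hey1 rose by 0.22 ± 0.06 on the log2 scale, which did not pass when libraries were scaled by their totals (adjusted p = 0.0583). Rbpj, the DNA-binding partner of Notch, did not pass the test (log2 0.07, adjusted p = 0.186). The direct test of the steps around day 3.5 called 15 of the 19 genes as lower at day 3.5 than the mean of days 3 and 4 (19.7% of all genes), and 0 as higher. Dll1 rose again to 79.1 TPM at day 4, whereas Hes5 stood at 52.2 TPM.

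Of 26 genes of the passage from progenitor to neuron, 16 were lower and 2 higher, with a median log2 difference of -0.31. Dll1, Dll3, Dll4 and Mfng are in both this list and the Notch list. Neurog2, the proneural factor of the motor neuron domain, fell from 102.37, 85.22 and 110.84 TPM to 53.41, 57.41 and 54.69 TPM (log2 -0.86 ± 0.09, adjusted p = 7.31e-09) and stood at 32.3 TPM at day 4. Neurog1 fell 2.40-fold, from 23.11, 23.78 and 24.09 TPM to 8.66, 10.22 and 10.82 TPM (log2 -1.26 ± 0.12, adjusted p = 1.87e-09). Nhlh1 (-0.59 ± 0.09) and Neurod4 (-0.52 ± 0.09), which are expressed shortly after the proneural factors, fell as well. The 2 members that rose were Myt1 (0.27 ± 0.07), whose call was lost on log2(TPM + 1) (adjusted p = 0.072), and Tubb3 (0.21 ± 0.06), whose call was lost when libraries were scaled by their totals (adjusted p = 0.0513). Neurog3, a proneural gene of the most ventral spinal cord, measured 10.19, 8.42 and 14.24 TPM against 12.74, 13.98 and 12.17 TPM (log2 0.22 ± 0.14, adjusted p = 0.231, and 0.46, adjusted p = 0.0131, without the third library of day 3), before a mean of 72.9 TPM at day 4. General progenitor genes showed no common direction. Of 20, 3 rose and 7 fell, with the radial glia gene Fabp7 higher (log2 0.49 ± 0.05), Msi1 lower (-0.24 ± 0.05) and Sox2 at 0.01 ± 0.05 (adjusted p = 0.94).

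Motor neuron genes did not move as a group. Of 22 identity and cholinergic genes, 7 rose and 9 fell (median log2 -0.04). The homeobox genes Lhx3, Lhx4 and Isl2 were lower at day 3.5, while other members of the list rose. Lhx3 measured 24.78, 23.15 and 29.18 TPM at day 3 and 17, 15.71 and 15.62 TPM at day 3.5 (log2 -0.62 ± 0.09, adjusted p = 1.53e-06). Its relative Lhx4 fell from 41.45, 42.19 and 42.56 TPM to 24.56, 23.54 and 24.39 TPM (log2 -0.78 ± 0.08, adjusted p = 7.31e-09), and Isl2 from 24.72, 20.51 and 28.0 TPM to 14.31, 13.61 and 14.58 TPM (log2 -0.78 ± 0.12, adjusted p = 2.69e-06). In all 3 genes the groups did not overlap. Mnx1, the defining motor neuron homeobox gene, measured 29.63, 25.91 and 30.69 TPM and then 25.48, 23.67 and 24 TPM, a smaller difference (log2 -0.25 ± 0.07, adjusted p = 0.00669). The call of Mnx1 was lost without the third library of day 3 (log2 -0.19, adjusted p = 0.06) and with the offsets for GC content and length (log2 -0.15, adjusted p = 0.0883). Isl1 did not pass the test, with 67.19, 66.98 and 60.57 TPM against 62.28, 56.04 and 57.28 TPM (log2 -0.10 ± 0.09, adjusted p = 0.406).

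The cholinergic genes gave different results although Chat and Slc18a3 lie in a shared locus. Chat, which encodes the enzyme that makes acetylcholine, measured 8.62, 9.84 and 10.85 TPM at day 3 and 8.13, 7.59 and 6.51 TPM at day 3.5 (log2 -0.40 ± 0.11, adjusted p = 0.00242, and 0.0536 with limma on log2(TPM + 0.1)). Slc18a3, the vesicular transporter gene, lay at 82.61, 80.78 and 87.32 TPM and at 86.05, 85.66 and 81.68 TPM, overlapping ranges (log2 0.01 ± 0.06, adjusted p = 0.907). Pou3f1, a POU homeobox gene of motor neuron subsets, was among the 7 that rose and went from 2.01, 1.33 and 1.88 TPM to 5.56, 5.17 and 4.69 TPM (log2 1.55 ± 0.13, adjusted p = 8.32e-11). The guidance receptor gene Nrp1 (0.48 ± 0.08), the growth cone gene Stmn2 (0.46 ± 0.06), the Gdnf receptor gene Ret (0.44 ± 0.08), the repellent gene Slit3 (0.42 ± 0.07) and the column factor gene Foxp1 (0.33 ± 0.04) rose with it. Etv4, a pool marker induced by Gdnf in limb-level motor neurons, fell (-0.80 ± 0.12). The hindbrain and visceral list held 9 genes, of which 1 rose and 4 fell. Rgs4 gave the largest fall in the ranking described for Cyp26b1, from 7.7, 10.57 and 7.37 TPM to 2.09, 1.78 and 2.42 TPM (log2 -2.03 ± 0.18, adjusted p = 3.19e-10). Pou3f1, Lhx3 and Foxp1 share exon sequence with Gm2164, Gm27196 and Gm20696.

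Of 8 genes of the V3 interneuron domain, the most ventral neurons next to the floor plate, 2 rose and 2 fell. Sim1, the factor that marks these neurons, went from 1.62, 1.34 and 1.37 TPM to 5.23, 5.71 and 3.92 TPM (log2 1.86 ± 0.15, adjusted p = 1.64e-11). Its mean was 0.153 TPM at day 2.5 and 12.9 TPM at day 4, higher at each time point than at the time point before, and the direct test of its steps around day 3.5 gave -0.52 (adjusted p = 0.0599). That test passed without the first library of day 3 (adjusted p = 0.0444), the third of day 3.5 (0.0165), or the first or the second of day 4 (0.0361 and 0.0389). Uncx rose from 1.75, 2.55 and 2.29 TPM to 5.0, 5.19 and 4.69 TPM (log2 1.12 ± 0.15). Among 18 tested genes of other spinal interneurons, 5 rose and 2 fell, with Lhx1 (1.05 ± 0.11) and Gata2 (0.94 ± 0.16) higher. With the GC and length offsets 5 rose and 0 fell in this list.

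**Figure D2:**
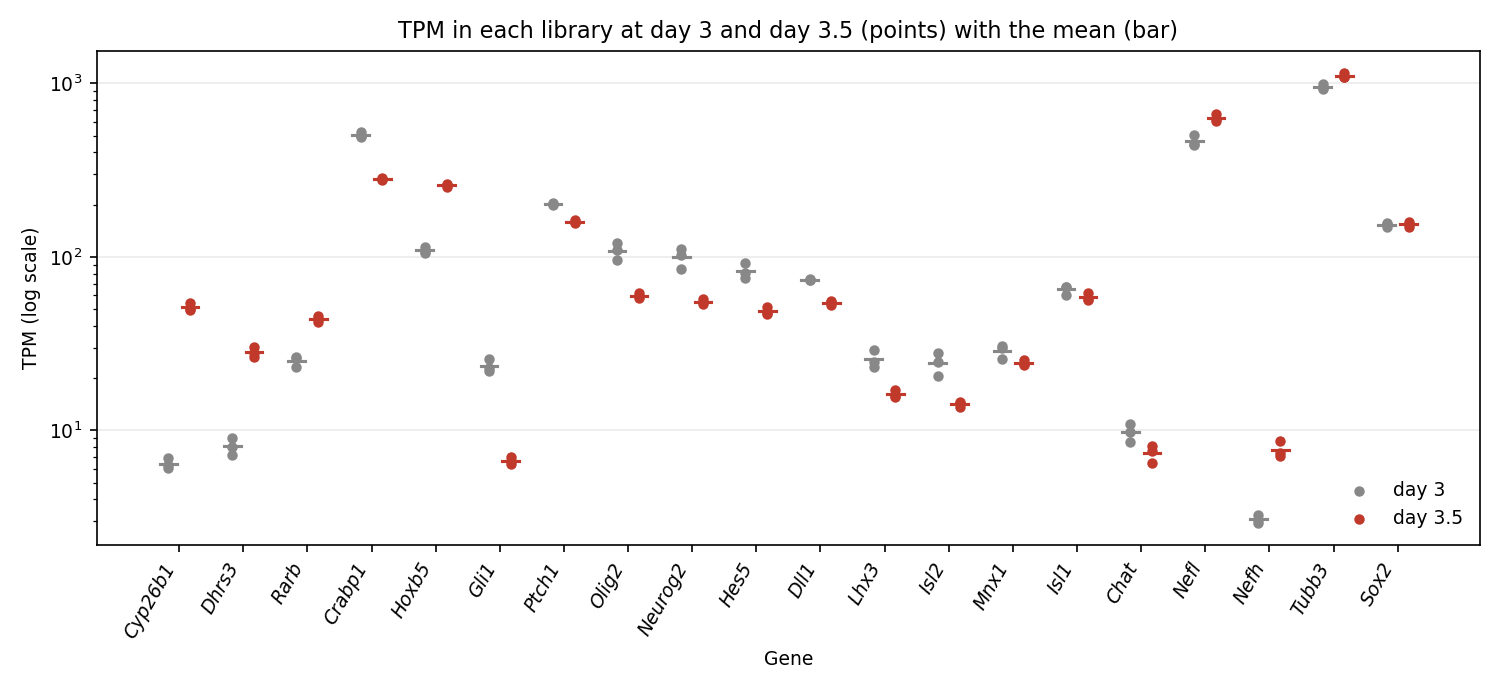
TPM on a log scale (y axis) of 20 genes (x axis) in each of the 3 libraries of day 3 (grey) and the 3 of day 3.5 (red), with short bars for the means. Cyp26b1, Dhrs3, Rarb, Hoxb5, Nefl and Nefh are higher in every day 3.5 library, Gli1, Olig2, Neurog2, Hes5, Lhx3 and Isl2 are lower in every one, and the groups overlap for Isl1 and Sox2.

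Genes of the neuronal cell body, the axon and the synapse rose in the same 12 hours. Of 26 pan-neuronal genes, 16 were higher and 1 was lower (median log2 0.30), and their summed level went from between 5494 and 5703 TPM at day 3 to between 6382 and 6892 TPM at day 3.5. Nefl, the light neurofilament chain, measured 447.87, 500.91 and 439.14 TPM and then 667.07, 611.07 and 627.3 TPM (log2 0.45 ± 0.07, adjusted p = 3.34e-06). Nefh, the heavy chain, which joins neurofilaments later in axon growth, went from 2.94, 3.23 and 3.06 TPM to 7.44, 8.65 and 7.14 TPM (log2 1.33 ± 0.10, adjusted p = 3.67e-12). The microtubule genes Map2 (0.72 ± 0.07), Dcx (0.68 ± 0.09) and Mapt (0.48 ± 0.09), the release gene Snap25 (0.61 ± 0.10) and the growth cone gene Gap43 (0.50 ± 0.07) rose. The member that was lower, the splicing factor gene Rbfox3 (-0.27 ± 0.08, adjusted p = 0.00934), lost its call without the third library of day 3 (adjusted p = 0.0719) and with the GC and length offsets (adjusted p = 0.0755).

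In the synapse list 21 of 30 genes rose and 2 fell (median log2 0.28). Syt1, the calcium sensor of transmitter release, went from 7.39, 8.06 and 7.21 TPM to 15.25, 14.66 and 13.45 TPM (log2 0.93 ± 0.07, adjusted p = 6.45e-12), and the vesicle genes Rab3c (0.93 ± 0.07) and Sv2b (2.02 ± 0.15) rose, Sv2b from 0.44, 0.52 and 0.54 TPM to 2.29, 2.07 and 1.96 TPM. Dlg4, which encodes the postsynaptic scaffold PSD-95, fell from 61.98, 65.3 and 67.84 TPM to 45.42, 46.19 and 42.53 TPM (log2 -0.53 ± 0.06) and was at 80.4 TPM at day 4. Among 26 axon guidance genes, 16 rose and 5 fell (median log2 0.33). The rises included the netrin receptor genes Unc5c (1.28 ± 0.14) and Dcc (0.58 ± 0.08), the ephrin receptor genes Epha3 (1.03 ± 0.12) and Epha5 (1.02 ± 0.10) and the repellent gene Sema3a (0.93 ± 0.12). Unc5b (-0.79 ± 0.12), Plxnd1 (-0.69 ± 0.10) and Efnb3 (-0.46 ± 0.06) fell. The part of the GC trend given above in these 3 lists was not tested. With GC and length offsets the counts were 18 higher and 1 lower for pan-neuronal, 20 and 3 for synapse and 15 and 5 for axon guidance genes. The median log2 differences with these offsets were 0.30, 0.34 and 0.27. Of 12 genes that mark later-born neurons, 4 rose, among them Nfib (0.84 ± 0.13) and Zfhx4 (0.82 ± 0.08). Nfia, the gene usually read first in that group, rose in counts (0.48 ± 0.07) but overlapped in TPM (7.33 to 7.55 against 5.78 to 8.91; adjusted p = 0.989 with limma on log2(TPM + 1)).

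**Figure D3:**
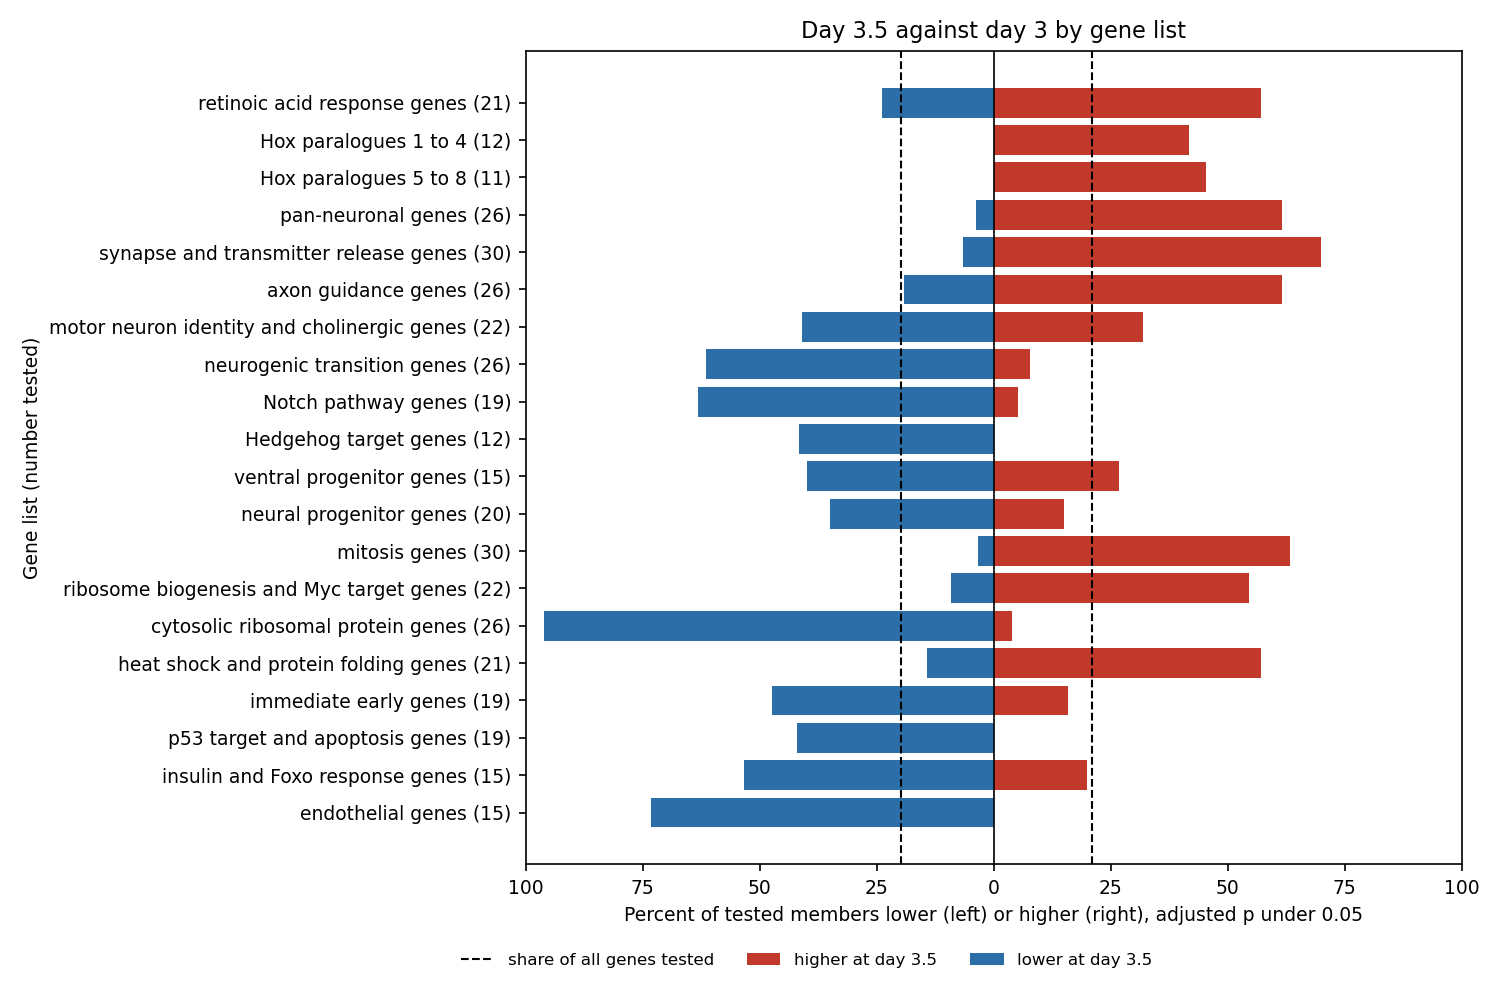
For 20 gene lists (y axis, number tested in brackets), the percent of tested members that were higher (red, to the right) or lower (blue, to the left) at day 3.5 at an adjusted p under 0.05 (x axis); dashed lines mark the shares among all genes tested, 21% and 19.8%. Synapse, mitosis, pan-neuronal and axon guidance lists extend furthest to the right, and cytosolic ribosomal protein and endothelial lists furthest to the left.

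Among the other large single changes, Lypd1, a modulator of nicotinic receptors, rose 3.91-fold (4.78, 4.06 and 4.99 TPM against 16.04, 12.16 and 17.85 TPM), the protocadherin genes Pcdh19 and Pcdh7 rose by log2 1.61 ± 0.13 and 1.60 ± 0.10, Astn2 by 1.53 ± 0.10 and the malic enzyme gene Me1 by 1.29 ± 0.13. Lypd1 shares exon sequence with Gpr39, and Pcdh19, Pcdh7, Unc5c, Sv2b and Me1 also overlap other-strand genes. The neuronal gene Sez6 (-1.58 ± 0.11), Flrt1 (-1.50 ± 0.14) and Syt13 (-1.23 ± 0.07) fell, Sez6 from a mean of 12.4 to 3.84 TPM before 11.4 TPM at day 4. Mettl27 (-1.25 ± 0.09) and the dynein gene Dnaic2 (-1.24 ± 0.17) fell and then returned in the same way. Sst, the somatostatin gene, fell from 153.23, 143.29 and 152.42 TPM to 90.88, 86.91 and 91.03 TPM (log2 -0.74 ± 0.10).

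Many genes of cell division and ribosome assembly rose between day 3 and day 3.5. In the mitosis list 19 of 30 genes rose and 1 fell, with a median log2 difference of 0.19. Examples were Prc1 (0.34 ± 0.06), which bundles the central spindle, and the kinase genes Aurka (0.33 ± 0.06) and Plk1 (0.28 ± 0.06), while the cyclin gene Ccnb2 fell (-0.36 ± 0.05). With the GC and length offsets 13 rose and 1 fell. The step from day 2.5 to day 3 had 0 rises and 27 falls in this list and the step from day 3.5 to day 4 had 0 and 27, in comparisons that share libraries with the present one and called 34.4% (18.1% higher, 16.3% lower) and 40.2% (19.4% higher, 20.8% lower) of all genes. Scaled by library totals, the splits of all genes were 3846 higher and 2225 lower for the step to day 3, and 4998 higher and 2191 lower for the step to day 4. The direct test of the steps around day 3.5 called 26 of the 30 genes as higher at day 3.5 than the mean of its neighbours (21.8% of all genes). Among 29 DNA replication genes 5 rose and 3 fell, and 2 and 1 with GC and length offsets. Of 22 ribosome biogenesis and Myc target genes, 12 rose and 2 fell (median log2 0.14). Their summed level overlapped between the days, at 4915 to 5105 TPM and then 4947 to 5029 TPM. Myc, the growth regulator, went from 13.86, 13.89 and 11.52 TPM to 17.82, 20.33 and 16.56 TPM (log2 0.54 ± 0.09, adjusted p = 1.83e-05) and was at 10.2 TPM at day 4, and its relative Mycn fell (-0.61 ± 0.06). The assembly factor gene Bop1 rose (0.39 ± 0.06) and the nucleolar genes Nop58 (0.25 ± 0.05) and Ncl (0.22 ± 0.04) rose, Nop58 and Ncl not with the GC and length offsets (adjusted p = 0.462 and 0.218).

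The genes of the finished ribosome fell. Of 26 cytosolic ribosomal protein genes 25 were lower and 1 higher (median log2 -0.29), and their summed level went from between 42870 and 43180 TPM at day 3 to between 33690 and 35160 TPM at day 3.5, groups far from overlapping. Rps20 measured 1714.34, 1740.64 and 1667.43 TPM and then 1158.38, 1259.83 and 1162.8 TPM (log2 -0.52 ± 0.05, adjusted p = 2.09e-10), and Rps18 fell by a log2 of -0.49 ± 0.06. Rpl5 was the member that rose (0.44 ± 0.06). These genes have many processed pseudogenes, so single values are uncertain. Of 21 chaperone genes, 12 rose and 3 fell, with Hsph1 (0.58 ± 0.06) and Hsp90aa1 (0.37 ± 0.05) higher and Hsp90ab1 (-0.22 ± 0.03) and Bag3 (-0.53 ± 0.06) lower.

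Of 15 insulin and Foxo response genes, 8 fell and 3 rose. Txnip, a sensor of glucose supply, fell from 116.34, 106.24 and 124.9 TPM to 59.97, 62.41 and 60.25 TPM (log2 -0.90 ± 0.09, adjusted p = 3.73e-09) and was back at 117 TPM at day 4. Pik3ip1, an inhibitor of PI3 kinase, fell (-0.97 ± 0.12), as did Foxo1 (-0.38 ± 0.07) and Irs2 (-0.32 ± 0.07). Of 19 p53 target genes 8 fell and 0 rose. The cell cycle inhibitor gene Cdkn1a went from 224.51, 226.02 and 233.33 TPM to 137.57, 140.8 and 138.67 TPM (log2 -0.69 ± 0.06, adjusted p = 1.96e-10), and the death gene Bbc3 fell (-0.52 ± 0.06). Among 19 immediate early genes, 9 fell and 3 rose, with Egr1 lower (-0.88 ± 0.16) and Jund higher (0.28 ± 0.07). Among 19 circadian clock genes, 8 fell and 4 rose: the output and repressor genes Per3 (-0.85 ± 0.11), Nr1d1 (-0.76 ± 0.15) and Dbp (-0.73 ± 0.13) were lower and the activator gene Arntl (0.58 ± 0.10) and its partner gene Clock (0.31 ± 0.05) were higher. Txnip, Pik3ip1, Dbp (Sphk2) and Nr1d1 (Thra) share exon sequence with other-strand genes.

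**Figure D4:**
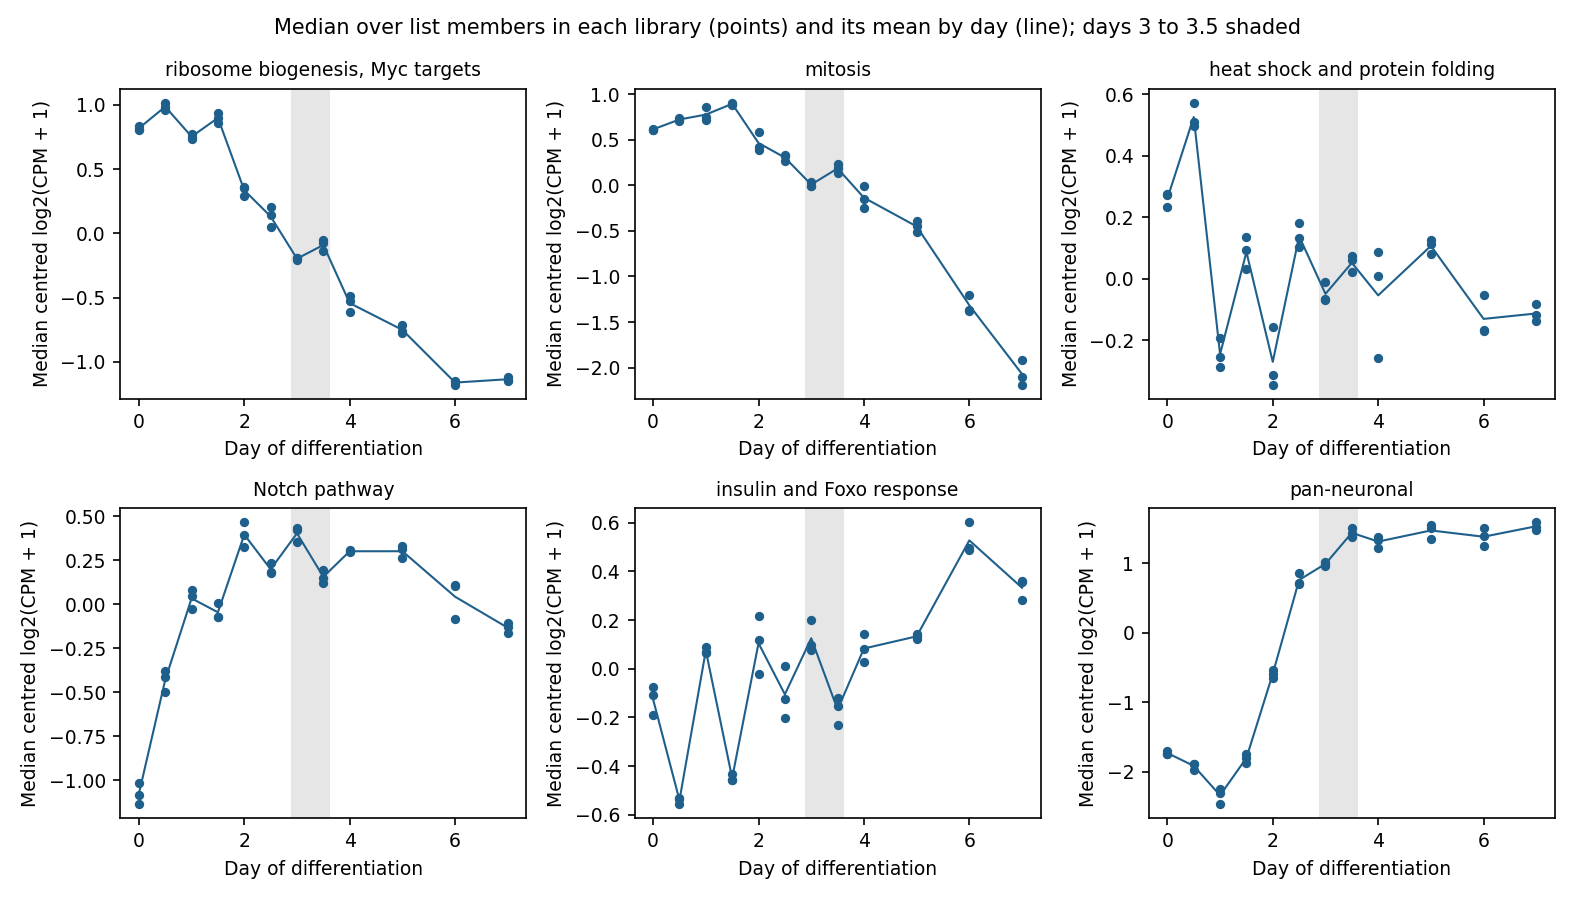
Median over list members of log2(CPM + 1), centred per gene over the 36 libraries (y axis, own scale in each panel), against day of differentiation (x axis) for 6 lists; points are libraries, lines join the day means, and days 3 to 3.5 are shaded. The mitosis and ribosome biogenesis medians step up between days 3 and 3.5 within a decline, and the Notch and insulin and Foxo medians step down between days 3 and 3.5.

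The steps on either side of days 3 and 3.5 were compared for all genes. A level that stays flat on 1 side or speeds up can also be called. A call therefore need not be a peak or a dip at the middle day. The test of the step to day 3.5 minus the step from day 2.5 called 6766 genes (37.6%). The test of the step after day 3.5 minus the step before it called 7466 genes (41.5%), of which 3924 lay above the mean of days 3 and 4 (21.8%) and 3542 below it (19.7%). Scaled by library totals the split was 2302 above and 4968 below. Genes far above that mean included Cyp26b1 (-6.03), Cyp26a1 (-3.05), Pcdh19 (-2.46), Unc5c (-2.24) and Hoxb5 (-2.16). Genes far below it included Robo3 (2.92), a guidance receptor gene of crossing axons with 0.49, 0.71 and 7.15 TPM at days 3, 3.5 and 4, then Sez6 (2.88), Rgs4 (2.74) and Gipr (2.74). Neurog3 (2.18) belongs to those through its later rise, from 13 to 72.9 TPM, and not through a dip. The TPM of Robo3 likewise show a later rise and no dip.

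The same test centred on day 1.5, which uses days 1, 1.5 and 2 and shares no library with days 3, 3.5 or 4, called 8726 genes (48.5%). Of the 3924 genes above the mean of their neighbours at day 3.5, 2603 (66.3%) were also above at day 1.5, where 27.1% of all genes were, and 290 (7.4%) were below. These 2603 genes were 53.4% of the 4872 that stood above at day 1.5. Of the 3542 genes below at day 3.5, 1867 (52.7%) were below at day 1.5 too, where 21.4% of all genes were, and 227 (6.4%) were above. The 1867 were 48.4% of the 3854 below at day 1.5. The split at day 1.5 depends on the scaling, with 3510 above and 5174 below by library totals and 2808 and 4811 on log2(TPM + 1). Over the 10 alternatives that kept all libraries of these days, the shared part was 56.2% to 68.8% of genes above at day 3.5. It was 52.8% to 64.5% of those below. Across the same alternatives 14.3% to 30.1% of all genes were above at day 1.5 and 11.5% to 33.9% below. The 64.5% came with the 33.9%. Cyp26b1 (-4.65 at day 1.5), Cyp26a1 (-3.62), Dhrs3 (-2.24) and Rarb (-0.99) were among the genes above at both times, and in the ribosome biogenesis list 20 of 22 genes were above at each time. The libraries of days 1.5, 2.5 and 3.5 fall between full days, and with a medium change at an unstated hour each day the time since that change cannot be told apart from the hour of collection.

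Markers of other cell types moved with these results, and their part in them was not tested. All 15 endothelial genes were tested, 11 fell and 0 rose (median log2 -0.64), and their summed level went from between 181 and 206 TPM to between 113 and 126 TPM, with 0 of them at 0 in all 6 libraries. Pecam1, which defines the type, measured 25.13, 25.52 and 23.22 TPM and then 12.66, 13.95 and 13.61 TPM (log2 -0.86 ± 0.18, adjusted p = 0.000178), and Kdr (-0.68 ± 0.15) and Plvap (-1.35 ± 0.18) fell. Blood and microglia genes were near their limit, with 7 of 15 tested, 1 higher and 4 lower, 2 at 0 in all 6 libraries, and summed levels of 8.5 to 15.3 TPM and then 1.19 to 2.76 TPM. Neural crest and sensory genes, 12 of 15 tested, had 1 rise and 4 falls, with sums of 69.6 to 78.7 TPM and then 38.5 to 42.3 TPM. Mesoderm genes (13 of 17 tested, 1 higher, 5 lower) summed to 27.1 to 39.6 and 28.7 to 33.0 TPM, endoderm genes (12 of 18 tested, 0 higher, 4 lower) to 34.3 to 41.3 and 24 to 28.2 TPM, and fibroblast genes (14 tested, 0 higher, 5 lower) to 116 to 174 and 117 to 128 TPM. Glial genes, 4 higher and 7 lower of 22 (median log2 -0.04), summed to 1047 to 1132 and 1282 to 1324 TPM. This sum was higher at day 3.5 although more members fell than rose, and it includes the radial glia gene Fabp7, given above as higher.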

How the data were processed

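RNA with poly(A) tails from HM1 cells was sequenced, in 3 libraries for each of 12 time points. Per the labels' protocols the kits were Qiagen RNeasy Plus Micro for extraction and KAPA mRNA for libraries, and per the submitters' processing notes bcl2fastq 2.20.0 and RSEM were used with GRCm38. How reads were aligned, with which annotation release and whether by strand is not given in the sources used here. The authors deposited expected counts per gene (6.87% of values not whole), which were rounded to whole numbers here, and TPM values, which correct for length and total and so move when an abundant group moves. Of 51912 gene IDs, 51633 matched a symbol. Coordinates are those of GENCODE M21 (GRCm38), counted from 1. By GENCODE exons, Foxp1, Hoxa3, Hoxc5 and mt-Co3 overlap a same-strand gene, and Arntl, Bop1, Dbp, Dll1, Dll4, Foxo1, Gli1, Hes5, Hoxa3, Hoxa4, Hoxb5, Id4, Irs2, Jund, Lhx3, Lypd1, Map2, Me1, Meis1, Nefl, Neurog3, Nfia, Nkx2-2, Nkx6-2, Notch1, Nr1d1, Nrarp, Olig1, Pcdh19, Pcdh7, Pik3ip1, Pou3f1, Prc1, Rarb, Rpl5, Rps18, Shh, Slc2a1, Sv2b, Tgm2, Txnip and Unc5c overlap an other-strand gene, which leaves their values uncertain.

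All 36 libraries entered 1 edgeR 4.0.16 model of 12 groups (R 4.3.3, filterByExpr by time point, TMM scaling, glmQLFit and glmQLFTest, 24 residual degrees of freedom), with Benjamini-Hochberg adjustment over 17990 genes at 0.05. SE is the size of the log2 difference divided by the square root of F, which is approximate. Differences between steps were contrasts in this model. The members and the 49 gene lists were chosen with earlier results of these data known. Named genes were a panel, the changed genes of largest log2 difference (12 up, 12 down) with no overlap between the days and 10 CPM or more on the higher day, the largest differences between steps, and changed list members, of which some are left out for length and some are not reported here. Genes that did not pass, and lists with few changes, were named to account for members of the panel and the lists.

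Every pair of replicates differed beyond sampling noise (the smallest chi-square was 3.00 per degree of freedom), and each library counted once. On simulated data, with 200 of 17990 genes changed between days 3 and 3.5, the fit found 68.7% of the changes that were 1.5-fold, 65.7% of those that were 2-fold and 93.9% of those that were 4-fold, and 3.8% of its calls were false. Apart from these changes each simulated gene had 1 mean over all 36 libraries. In the data 40.8% of genes were called, so the simulated shares do not describe the 7341 calls. Alternatives were median-of-ratios and library-total scaling, DESeq2 1.42.0, other filters, only the compared libraries, a replicate block, each library left out, limma 3.58.1 on log2(TPM + 1) and log2(TPM + 0.1), and, chosen after seeing the data, offsets for GC content and length.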

Additional observations from a re-analysis of the deposited data

Results flagged for a closer look

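The steps on the 2 sides of a time point were compared within the model, and a gene was singled out here where the difference of the steps passed the test. For day 3.5 this held for 7466 genes, for day 3 (the step to day 3.5 minus the step from day 2.5) for 6766 genes and for day 1.5 for 8726 genes. Single genes were considered only from the panel and from the 12 largest rises and 12 largest falls between days 3 and 3.5, so that others with such a difference, among them Robo3 (2.92), Gipr (2.74) and Neurog3 (2.18), lie outside the count that follows. Within that set 10 genes also had a difference of at least 2 on the log2 scale around day 3.5. Negative values, for genes higher at day 3.5 than the mean of days 3 and 4, were found for the retinoic acid hydroxylase genes Cyp26b1 (-6.03) and Cyp26a1 (-3.05), the protocadherin gene Pcdh19 (-2.46), the netrin receptor gene Unc5c (-2.24) and Hoxb5 (-2.16). Positive values, for genes lower at day 3.5 than that mean, were found for Sez6 (2.88), Rgs4 (2.74), Dnaic2 (2.26), Mettl27 (2.18) and Flrt1 (2.07). The libraries of days 3 and 3.5 are only 3 per group, so single libraries were not tested as outliers.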

How the results depend on the processing

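The count of 7341 changed genes was within 1.5 times under each alternative that was run. It was lowest at 5874 with limma on log2(TPM + 0.1) and highest at 7712 with only the compared libraries, and leaving out single libraries gave 6227 to 6628. The 694 genes at or above 2-fold were 155 (50 higher, 105 lower) when genes needed 10 CPM in 3 libraries and 80 (22 higher, 58 lower) with limma on log2(TPM + 1), where fewer low genes are kept or low values are damped, and 639 to 681 without single libraries. Without single libraries the differences between steps were called for 6222 to 7286 genes at day 3.5, 5198 to 6531 at day 3 and 7550 to 8720 at day 1.5, and the neighbouring steps for 5040 to 5736 (day 3 against day 2.5) and 6248 to 6732 genes (day 4 against day 3.5). Replicate numbers are shared by the groups but did not pair the samples: deviations of same-numbered libraries from their group means correlated at -0.0885, -0.0243 and -0.163 over 14141 genes, and other-numbered ones at up to 0.184. With the replicate number as a block 7257 genes were called, 682 of them at or above 2-fold, and 7408, 6703 and 8685 genes in the tests of steps at days 3.5, 3 and 1.5. Of the 157 genes named, 144 were called in the main fit. Over 2511 values of their difference under the alternatives 2480 kept direction and side of the threshold, 17 lost a call, 14 gained one and 0 turned sign with a call. The lost calls concerned 11 genes, Chat, Hey1, Hoxc5, Mnx1, Myt1, Ncl, Nfia, Nkx6-1, Nop58, Rbfox3 and Tubb3. For the 16 genes with a printed difference of steps, 299 of 304 values kept direction and side, and the other 5 were gained calls of Sim1. The block changed no call of a named gene. Only 3 libraries per time point limit the precision of single genes, and genes below 1 TPM rest on few reads.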

Other observations

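In the Bmp pathway, 7 of 18 tested genes rose and 3 fell: the ligand gene Bmp7 went from 13.9, 18.06 and 16.23 TPM to 31.39, 30.84 and 28.78 TPM (log2 0.92 ± 0.08, SE) and Id4 rose (0.79 ± 0.09), while Id1, a direct target, fell from 65.14, 60.45 and 72.04 TPM to 35.64, 33.37 and 35.65 TPM (log2 -0.92 ± 0.10). Of 20 Wnt and Fgf response genes, 1 rose and 7 fell. The member that rose was the phosphatase gene Dusp4 (0.53 ± 0.07), and Tcf7 (-0.54 ± 0.06) and Dusp6 (-0.49 ± 0.11) fell. Of 25 ion channel genes 10 rose and 4 fell (median log2 0.31), and with GC and length offsets 8 rose and 5 fell (0.11). Among those that fell, Kcnip1, a subunit of A-type potassium channels, went from 5.82, 6.28 and 5.6 TPM to 2.35, 2.15 and 2.56 TPM (log2 -1.32 ± 0.15). Of 24 neurotransmitter receptor genes 10 rose and 3 fell (median log2 0.39), and with these offsets 6 rose and 4 fell (0.20).

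In metabolism, 8 of 20 aminoacyl-tRNA synthetase genes rose and 1 fell, with Wars higher (0.37 ± 0.04) and Qars lower (-0.43 ± 0.04). Of 22 oxidative phosphorylation genes, 10 rose and 2 fell, with Cycs, the cytochrome c gene, higher (0.54 ± 0.08). Of 25 tested glycolysis and hypoxia genes, 4 rose and 6 fell, near the shares of all genes, and with GC and length offsets 6 rose and 4 fell. The glucose transporter gene Slc2a1 fell from 164.53, 152.5 and 165.98 TPM to 107.82, 119.94 and 106.99 TPM (log2 -0.52 ± 0.07). Of 27 tested integrated stress response genes 0 rose and 6 fell, with the falls near the 19.8% of all genes. With GC and length offsets 2 rose and 6 fell in this list.

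The mitochondrial gene mt-Co3 measured 0.26, 0.26 and 0.24 TPM in the libraries of day 3 and 65.73, 0.28 and 69.95 TPM in those of day 3.5, with a mean of 60.1 TPM at day 2.5 and 134 TPM at day 4. It shares exon sequence with mt-Atp6 on the same strand, and its difference did not pass edgeR's test (adjusted p = 0.133), but passed with DESeq2 (adjusted p = 0.00654), in edgeR with only the compared libraries (adjusted p = 0.000717) and in edgeR without the filter on low counts.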
